A study of Mus musculus with 9 samples.

Results

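The miR-148 and miR-152 family was followed in liver exosomes of mice from a study of diet-induced steatohepatitis, chow-fed controls included. The members were the 4 entries of the deposited miRNA table that carry the names mmu-miR-148a-3p, mmu-miR-148a-5p, mmu-miR-148b-3p and mmu-miR-152-3p, out of 722 entries in all. They were picked by their names. Counts were compared in 9 libraries, 3 for each of 3 groups. All mice carried floxed Hsp90ab1, the gene of the chaperone Hsp90β, and the groups were flox mice with intact Hsp90β fed chow (flox chow), flox mice fed HFFC (flox HFFC) and Hsp90β KO mice fed HFFC (KO HFFC). The HFFC diet is rich in cholesterol, fructose and fat. Per the study, the KO arises from a Cre recombinase driven by the albumin promoter and is a deletion in hepatocytes. Hsp90β of the other liver cells was not measured in these libraries. A KO group on chow was not analysed here, so the deletion was compared on the HFFC diet only. The study describes the exosomes, small secreted vesicles, as pelleted from medium in which liver pieces had been treated with collagenase, so vesicles of every liver cell type may contribute. Fewer vesicles from a cell type and fewer miRNA copies per vesicle cannot be told apart in such libraries.

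A miRNA is cut from an RNA hairpin as a pair of arms, 5p and 3p, one of which is usually kept by an Argonaute protein and guides it to mRNAs, while the other is mostly degraded. Target choice rests on the seed, bases 2 to 8 of the mature strand, so miRNAs with the same seed form a family with overlapping targets. miR-148a is abundant in hepatocytes. It is known to repress the LDL receptor and the cholesterol exporter Abca1, and it is itself activated by the lipogenic factor Srebp1. miR-148b and miR-152 share many of these targets, and the family is known in human cells for repressing DNA methyltransferases such as DNMT1.

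The mature sequences, which show why these entries count as one family and how close they are to each other, are given 5′ to 3′ with the seed in capitals (RefSeq, GRCm38.p6). The first 3 are the 3p strands. The last 3 are the opposite strands of the same hairpins, of which only miR-148a-5p is a member.
mmu-miR-148a-3p: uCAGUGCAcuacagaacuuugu
mmu-miR-148b-3p: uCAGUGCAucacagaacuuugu
mmu-miR-152-3p: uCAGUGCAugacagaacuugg
mmu-miR-148a-5p: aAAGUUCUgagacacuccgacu
mmu-miR-148b-5p: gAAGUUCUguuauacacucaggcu
mmu-miR-152-5p: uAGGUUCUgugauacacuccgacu

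Among 1679 mature mouse miRNAs of the RefSeq table, the 3p seed CAGUGCA was found in these 3 only. With positions counted from 1 at the 5′ end, miR-148b-3p differed from miR-148a-3p by 2 substitutions (C9U and U10C) over 22 positions, and miR-152-3p by 3 (C9U, U10G and U20G) over the 21 positions both have. miR-148b-3p and miR-152-3p differed from each other at 2 positions (C10G and U20G). No other mature miRNA of that table came within 5 differences of a 3p strand. How the authors assigned reads with mismatches is not stated in the labels or methods, so a small part of the rare members' counts could be reads of the abundant miR-148a-3p. On the 5p side, miR-148a-5p shared its seed AAGUUCU with miR-148b-5p only.

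The 3 hairpins lie on different chromosomes (GRCm38, GENCODE M21, possibly another release than the authors used). Mir148a, at 51269812 to 51269910 on chromosome 6 (minus strand), overlapped no other annotated gene. Mir148b, at 103285125 to 103285221 on chromosome 15 (plus strand), lies in an intron of Copz1, and Mir152, at 96850393 to 96850465 on chromosome 11 (plus strand), in an intron of Copz2. Both host genes encode zeta subunits of the COPI coat of transport vesicles.

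The libraries held 218256 to 681286 miRNA counts. These were 0.849% (flox chow replicate 3) to 2.61% (flox chow replicate 2) of all library tags, the total behind the deposited RPM. The hepatocyte miRNAs were present in every group: a list of 7, led by miR-122-5p, took 23.4% to 41.1% of miRNA counts for flox chow, 23.7% to 36.5% for flox HFFC and 27.5% to 34.4% for KO HFFC. Markers of endothelial, immune, erythroid, mesenchymal, epithelial and muscle cells were also found, and no marker of these lists was at 0 in all libraries. Flox chow replicate 3 stood apart, with the lowest yield and with muscle miRNAs at 0.590% of its counts, against 0.00587% to 0.0277% in the other 8 libraries. Across the whole table edgeR's quasi-likelihood test called 0 of 248 tested miRNAs at an adjusted p under 0.05 in each comparison, a background of 0%. DESeq2 called 0, 5 and 6 in the diet comparison, the genotype comparison and KO HFFC against flox chow, and limma-voom called 0 in each. No member was among them. An unadjusted p under 0.05 was reached by 4.44%, 8.06% and 12.9% of tested miRNAs in the same order.

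miR-148a-3p was by far the leading member. It ranked 18 by mean share among the 722 entries and made up 1.01% to 2.24% of all miRNA counts of a library. Of the counts with the 3p seed it held 95.5% to 98.1% in every library. miR-152-3p (44 to 220 counts) and miR-148b-3p (18 to 228 counts) ranked 98 and 127, and miR-148a-5p (4 to 27 counts) ranked 231. Thus miR-148a-3p was highest and miR-148a-5p lowest in all 9 libraries. The order of the middle pair changed between libraries, since miR-152-3p was above miR-148b-3p in 6 libraries and below it in 3. All mature strands are of nearly the same length, but adapter ligation favours some sequences, so levels of different miRNAs are compared only roughly. The opposite strands of the rare hairpins were almost absent. miR-148b-5p had 3 counts for flox chow replicate 2, 1 for flox HFFC replicate 3 and 0 in the other 7 libraries. miR-152-5p had 4, 3 and 1 counts for KO HFFC replicates 1, 2 and 3, 1 for flox HFFC replicate 1 and 0 in the other 5. A count of 0 allows up to 3 counts in a library. At this depth these opposite strands are given by their counts only, without a fold change or p-value, and no difference between groups is claimed.

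**Figure D1:**
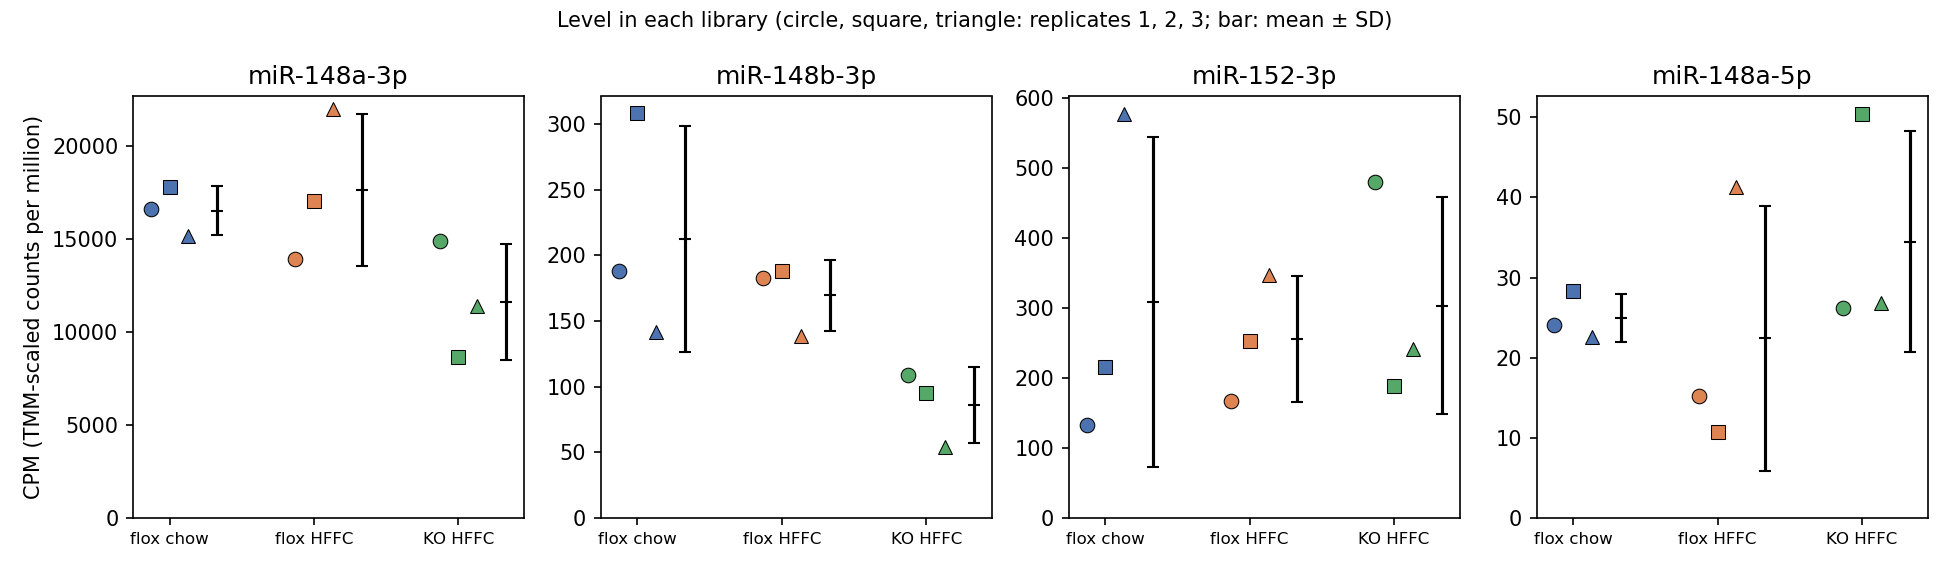
Level of each member (CPM, counts per 1000000 after TMM scaling, linear axes from 0) in the 3 libraries of each group, with the mean and SD beside them. For miR-148b-3p the 3 KO HFFC points, from 53.7 to 109 CPM, lie below every flox point, whereas the groups overlap for miR-152-3p and miR-148a-5p.

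Whether the abundant member followed diet or genotype was examined first. miR-148a-3p had 7598, 13185 and 2681 counts for flox chow replicates 1 to 3, 3659, 9522 and 9054 for flox HFFC, and 6816, 4635 and 3810 for KO HFFC. Scaled by TMM factors to counts per 1000000 (CPM), these were 16608, 17816 and 15164 for flox chow, 13899, 17043 and 21987 for flox HFFC, and 14866, 8648 and 11371 for KO HFFC. The chow libraries lay close together, and the flox HFFC libraries were spread around them. Among the KO libraries replicate 1 lay within the flox HFFC range, while replicates 2 and 3 were the lowest of all 9.

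With the diet the mean of miR-148a-3p went from 16529 CPM ± 1328 (SD, n = 3) to 17643 ± 4077, a log2 fold change of 0.09 ± 0.26 (SE). The 95% interval reached from −0.48 to 0.67, so a diet effect of over about that size in either direction would have been outside it. In the KO the mean was 11628 ± 3117, a log2 fold change of −0.60 ± 0.27 against flox HFFC (95% interval −1.18 to −0.02). The unadjusted p was 0.0430 and edgeR's adjusted p 0.592, so the difference did not pass. It was −0.40 without flox HFFC replicate 3 and −0.86 without KO HFFC replicate 1, the extremes of the values with 1 library left out. Against flox chow the log2 fold change of the KO was −0.51 ± 0.27 (adjusted p = 0.509), and each KO library was below each chow library on this scale. The groups overlapped when counts were divided by all miRNA counts or by all library tags, as in the deposited RPM.

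miR-148b-3p, the Copz1-hosted member, had the lowest p of the family, in the comparison of KO HFFC with flox chow. It had 86, 228 and 25 counts for flox chow replicates 1 to 3, 48, 105 and 57 for flox HFFC, and 50, 51 and 18 for KO HFFC. In CPM these were 188, 308 and 141 for flox chow, 182, 188 and 138 for flox HFFC, and 109, 95.2 and 53.7 for KO HFFC. All 3 KO libraries were below all 6 flox libraries, and the flox groups overlapped. The shares of all tested miRNAs with non-overlapping groups in each comparison are given below, while the share against both flox groups at once was not counted.

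The mean of miR-148b-3p was 212 CPM ± 86.0 for flox chow, 170 ± 27.1 for flox HFFC and 86.0 ± 28.8 for KO HFFC (SD, n = 3). Its log2 fold change was −0.34 ± 0.46 (SE) with the diet, −0.97 ± 0.47 in the KO against flox HFFC (95% interval −1.99 to 0.04) and −1.31 ± 0.47 in the KO against flox chow (−2.33 to −0.29). edgeR's adjusted p was 0.985, 0.616 and 0.345, so none passed. The unadjusted p of the last was 0.0161, the eighth lowest of 248. The 2 KO comparisons share the KO libraries. Leaving out 1 library gave values from −1.22 to −0.76 against flox HFFC and from −1.60 to −0.999 against flox chow. Scaled by all miRNA counts, the KO libraries remained below all flox HFFC libraries but overlapped flox chow, and in the deposited RPM they overlapped both flox groups. When scaled by all miRNA counts, 13.3% of the 248 tested miRNAs had KO HFFC and flox HFFC libraries that did not overlap.

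In all, groups that did not overlap in CPM were seen for 0 of the 4 members with the diet, 1 in the genotype comparison (miR-148b-3p) and 2 for KO HFFC against flox chow (miR-148a-3p and miR-148b-3p). Of all 248 tested miRNAs, 8.47%, 14.1% and 17.7% had such groups. An unadjusted p under 0.05 was found for 0, 1 and 1 of the 4 members, against the shares of 4.44%, 8.06% and 12.9% above. With 4 members these counts do not set the family apart. The median log2 fold change of the members was −0.21, −0.18 and −0.26 in the same order, beside −0.02, −0.03 and −0.05 for all tested miRNAs.

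**Figure D2:**
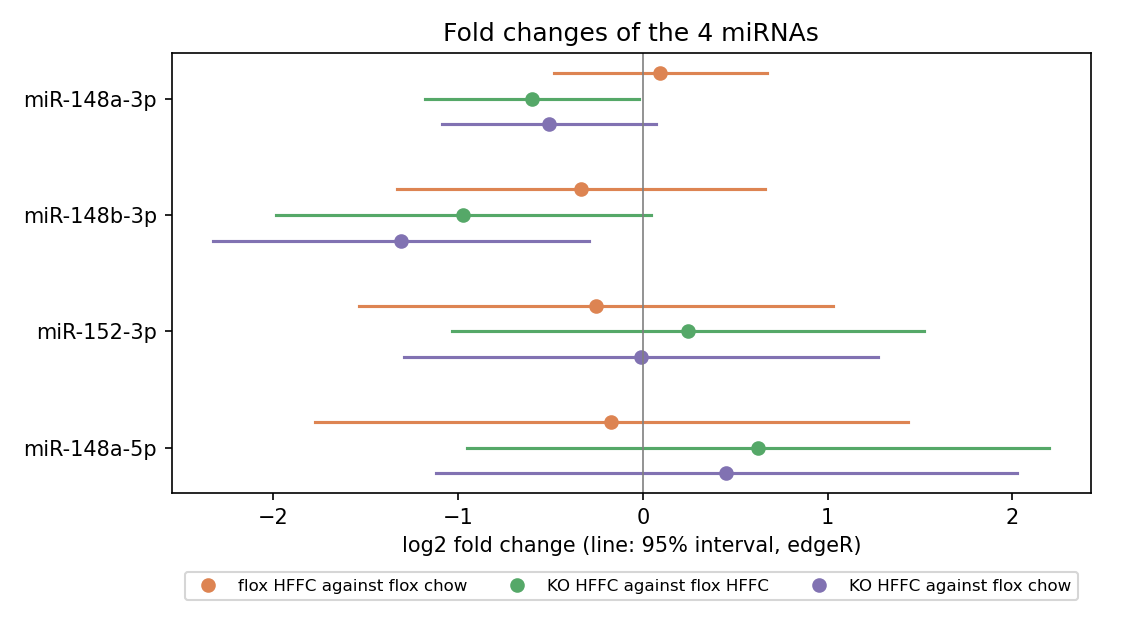
log2 fold change of each member in the 3 comparisons (points) with 95% intervals from edgeR (lines), the vertical line marking no change. The KO intervals of miR-148a-3p and miR-148b-3p lie mostly below 0, and those of miR-152-3p and miR-148a-5p reach far to both sides.

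The Copz2-hosted miR-152-3p showed no such order of groups. It had 61, 160 and 102 counts for flox chow replicates 1 to 3, 44, 141 and 143 for flox HFFC, and 220, 101 and 81 for KO HFFC. In CPM these were 133, 216 and 577 for flox chow, 167, 252 and 347 for flox HFFC, and 480, 188 and 242 for KO HFFC. Each group held both low and high libraries, and the highest value of all was that of flox chow replicate 3, the library with the muscle miRNAs, whose part in it was not tested.

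The mean of miR-152-3p was 309 CPM ± 236 for flox chow, 256 ± 90.1 for flox HFFC and 303 ± 155 for KO HFFC (SD, n = 3). The log2 fold changes were −0.25 ± 0.59 (SE) with the diet, 0.24 ± 0.59 in the KO against flox HFFC and −0.01 ± 0.59 against flox chow, with edgeR's adjusted p from 0.954 to 0.991. The 95% interval of the KO against flox HFFC ran from −1.03 to 1.52, so these data do not show that miR-152-3p was unaltered. Single libraries set its direction: the diet value was 0.59 without flox chow replicate 3, and the KO value against flox HFFC was −0.30 without KO HFFC replicate 1.

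The passenger arm miR-148a-5p was rare. It had 11, 21 and 4 counts for flox chow replicates 1 to 3, 4, 6 and 17 for flox HFFC, and 12, 27 and 9 for KO HFFC. The mean was 25.0 CPM ± 3.00 for flox chow, 22.4 ± 16.5 for flox HFFC and 34.5 ± 13.8 for KO HFFC (SD, n = 3). The groups overlapped in each comparison, with log2 fold changes of −0.17 ± 0.74 (SE) with the diet, 0.62 ± 0.72 in the KO against flox HFFC and 0.45 ± 0.72 against flox chow (edgeR's adjusted p of 0.985, 0.864 and 0.856). The values rested on single libraries. Without KO HFFC replicate 2 the KO values were 0.19 against flox HFFC and 0.02 against flox chow. When a flox HFFC library was left out, the value against that group reached from 0.19 (replicate 2) to 1.42 (replicate 3).

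Ratios within a library do not depend on its scaling, so they were used to ask whether arms or members moved unequally. The arms of miR-148a come from one hairpin. Over all libraries the 5p arm made up 0.182% of the counts of both arms (95% Wilson interval 0.151% to 0.219%, counting error only). There were 691, 628 and 670 counts of miR-148a-3p for each count of miR-148a-5p for flox chow replicates 1 to 3, 915, 1587 and 533 for flox HFFC, and 568, 172 and 423 for KO HFFC. Thus every KO library was below every chow library, while flox HFFC held both higher and lower values. This order rests on few 5p counts. The 5p share was 0.176% (95% Wilson interval 0.101% to 0.307%) for KO HFFC replicate 1 and 0.236% (0.124% to 0.447%) for replicate 3. Both intervals overlapped those of all flox chow libraries, such as 0.159% (0.104% to 0.243%) for replicate 2. The share of the 5p arm was highest for KO HFFC replicate 2, at 0.579% (0.398% to 0.841%), and lowest for flox HFFC replicate 2, at 0.0630% (0.0289% to 0.137%).

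On the log2 scale (0.5 counts added to each arm) the arm ratio was 9.28 ± 0.08 for flox chow, 9.73 ± 0.75 for flox HFFC and 8.38 ± 0.88 for KO HFFC (SD, n = 3). The small SD of flox chow shows only that 3 values fell close together, not how precisely each ratio is known. For its replicate 3 the Wilson interval of the 5p share ran from 0.0579% to 0.382%. The difference in the arm ratio was 0.45 with the diet (exact two-sided permutation p = 0.4), −1.35 in the KO against flox HFFC (exact p = 0.2) and −0.90 against flox chow (exact p = 0.1). The smallest p that 3 against 3 libraries allow is 0.1, and adjusted over the 15 tests of ratios and shares all 3 arm ratio values were 0.667, so no difference passed. Without KO HFFC replicate 2 the KO differences were −0.86 against flox HFFC and −0.41 against flox chow, and without flox HFFC replicate 2 the diet difference was 0.06.

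**Figure D3:**
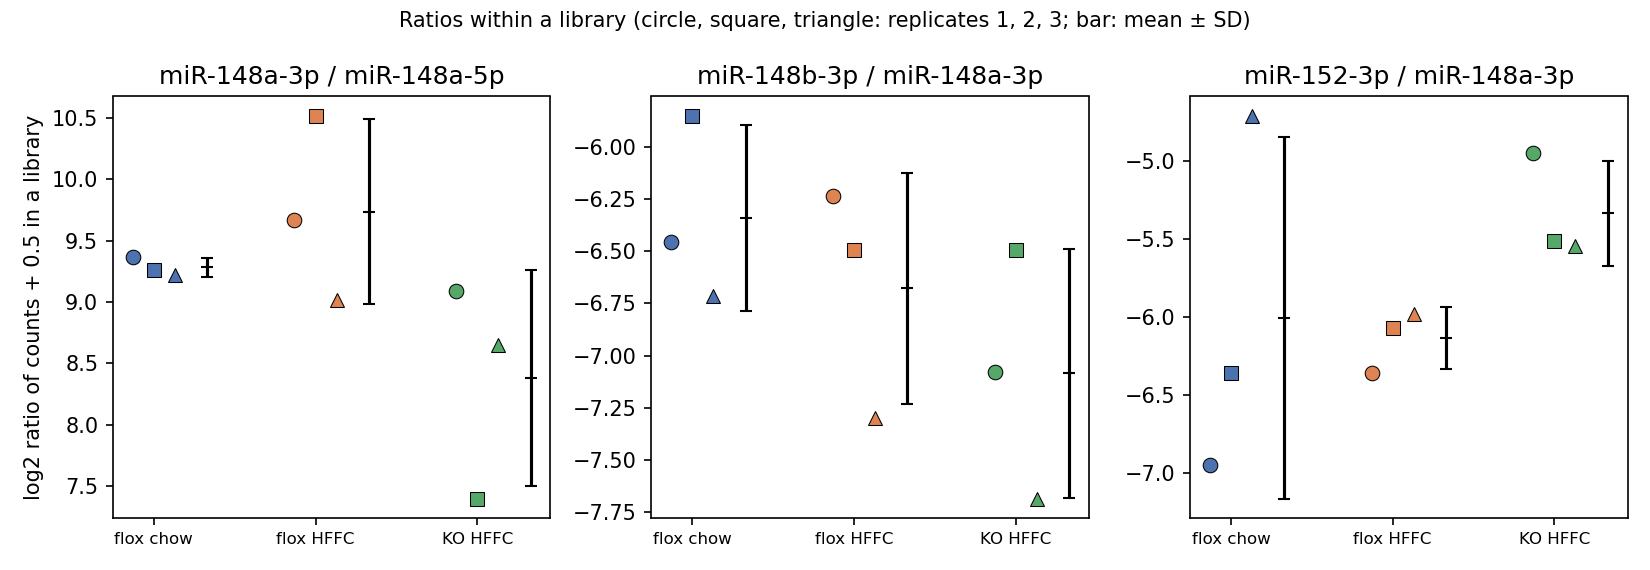
log2 ratios of counts within each library (0.5 added to both counts) by group, with mean and SD beside the points. The KO HFFC points lie below the flox chow points for the arms of miR-148a and above the flox HFFC points for miR-152-3p to miR-148a-3p, while the groups overlap for miR-148b-3p to miR-148a-3p. The 5p arm had only 4 to 27 counts in a library.

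Within the seed family, miR-152-3p stood higher relative to miR-148a-3p in every KO library than in every flox HFFC library, but the difference did not pass. There were 31.0, 45.9 and 47.0 counts of miR-148a-3p per count of miR-152-3p for KO HFFC replicates 1 to 3, against 83.2, 67.5 and 63.3 for flox HFFC. The flox chow libraries, at 125, 82.4 and 26.3, spanned both ranges. The log2 ratio of miR-152-3p to miR-148a-3p was −5.34 ± 0.34 for KO HFFC and −6.14 ± 0.20 for flox HFFC (SD, n = 3), a difference of 0.80 (exact two-sided permutation p = 0.1, adjusted p = 0.667). The difference was 0.67 for KO HFFC against flox chow and −0.13 for the diet (exact p of 0.4 and 0.9), and without flox chow replicate 3 these were 1.32 and 0.52. The levels of markers of other cells overlapped between the HFFC groups. The 5 mesenchymal markers took 0.860% to 1.33% of miRNA counts for flox HFFC and 1.19% to 1.68% for KO HFFC, and the 5 epithelial markers 0.0580% to 0.233% and 0.149% to 0.221%. Without miR-199a-3p, whose mature sequence is the same as that of miR-199b-3p, so that the deposited counts cannot separate them, the other 4 mesenchymal markers took 0.856% to 1.15% and 1.11% to 1.68%. No marker of either list was at 0 in all libraries, and their part in the ratio was not tested.

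miR-148b-3p and miR-148a-3p kept a ratio whose groups overlapped. There were 88.3, 57.8 and 107 counts of miR-148a-3p per count of miR-148b-3p for flox chow, 76.2, 90.7 and 159 for flox HFFC, and 136, 90.9 and 212 for KO HFFC. The log2 ratio of miR-148b-3p to miR-148a-3p differed by −0.34 with the diet, −0.41 in the KO against flox HFFC and −0.74 against flox chow (exact two-sided permutation p of 0.5, 0.5 and 0.2). The KO differences were −0.11 and −0.44 without KO HFFC replicate 3, and the diet difference was −0.03 without flox HFFC replicate 3. A difference between these members in their response could therefore not be shown.

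The summed share of the 3 strands with the family seed was 1.62% ± 0.354 of miRNA counts for flox chow, 1.73% ± 0.518 for flox HFFC and 1.33% ± 0.319 for KO HFFC (SD, n = 3). The groups overlapped in all 3 comparisons. The differences were 0.104 percentage points with the diet, −0.397 in the KO against flox HFFC and −0.293 against flox chow (exact two-sided permutation p of 0.8, 0.4 and 0.4). Without flox HFFC replicate 3 the first was −0.178 and the second −0.114, and without flox chow replicate 2 the third was −0.109.

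The other hepatocyte miRNAs gave a frame for miR-148a-3p. Its count ranged over 4.92-fold between libraries, more than the total miRNA count (3.12-fold), whereas that of miR-122-5p ranged over only 1.44-fold. miR-148a-3p therefore amounted to 3.64% of the miR-122-5p count for flox chow replicate 3, the library of lowest yield, and to 12.4% for flox chow replicate 2, that of highest yield. The log2 ratio of miR-148a-3p to miR-122-5p was −3.83 ± 0.89 for flox chow, −3.77 ± 0.68 for flox HFFC and −4.18 ± 0.36 for KO HFFC (SD, n = 3), with overlapping groups and an exact two-sided permutation p from 0.4 to 1. The part of library yield in this spread was not tested.

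**Figure D4:**
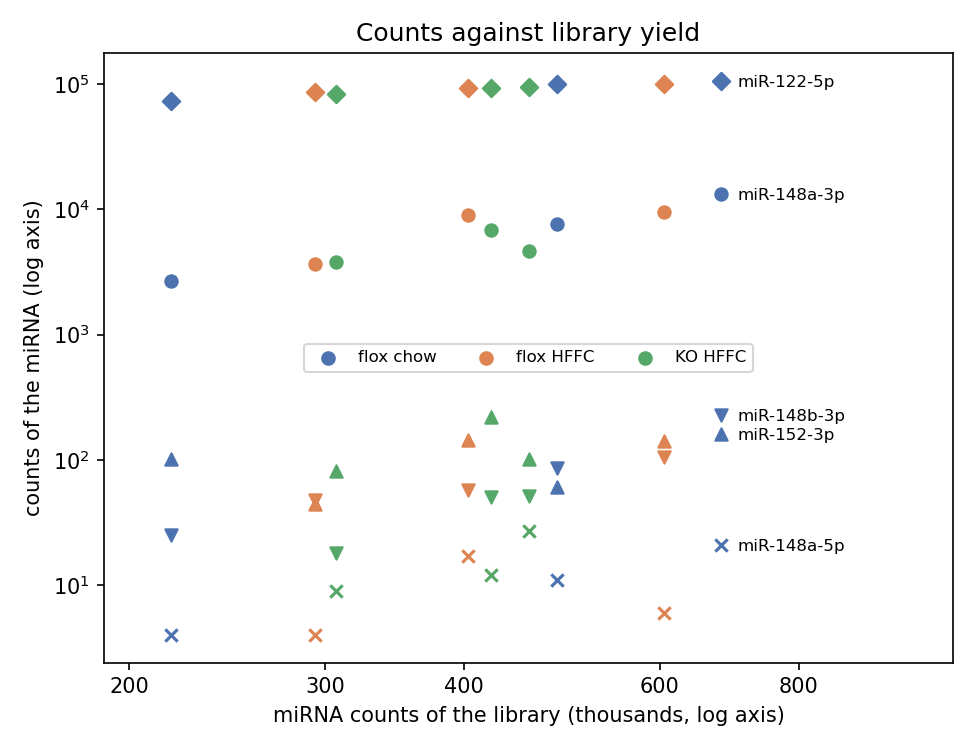
Counts of the members and of miR-122-5p (log axis) against the miRNA counts of the library (in units of 1000, log axis), coloured by group. miR-122-5p stays between 73731 and 106223 counts over the whole range of yield, while miR-148a-3p goes from 2681 counts in the smallest library to 13185 in the largest.

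Of the 7 listed hepatocyte miRNAs other than the family, 6 were tested and 0 passed in any comparison. In the genotype comparison 3 were positive and 3 negative. An unadjusted p under 0.05 was reached by 2, 0 and 2 of the 6, against 4.44%, 8.06% and 12.9% of all tested miRNAs. Both were arms of miR-802. With the diet miR-802-5p had 1.39 ± 0.48 (SE) and miR-802-3p 1.59 ± 0.50. In the KO they had 1.54 ± 0.48 and 1.39 ± 0.50 against flox chow, and 0.15 ± 0.47 and −0.21 ± 0.48 against flox HFFC. The median log2 fold change of the 6 was 0.05 with the diet, −0.03 in the KO against flox HFFC and −0.20 against flox chow. miR-122-5p, which sustains the hepatocyte state, had −0.23 ± 0.35 (SE) in the KO against flox HFFC, miR-192-5p −0.26 ± 0.20 and its cluster partner miR-194-5p 0.62 ± 0.46. The difference between miR-148a-3p and these was not tested.

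miRNAs known, like miR-148a, to repress the LDL receptor or Abca1 showed no common direction. Of 10 listed, 8 were in the table and 6 were tested, and 0 passed or had an unadjusted p under 0.05. With the diet 2 were positive and 4 negative, in the KO against flox HFFC 4 and 2, and against flox chow 3 and 3. The abundant miR-27b-3p, at a mean of 15457 CPM for KO HFFC, had log2 fold changes of 0.19 ± 0.23 (SE), −0.37 ± 0.23 and −0.19 ± 0.23 in the 3 comparisons. Its paralog miR-27a-3p, which differs from it by 1 base over 21 positions, so that reads may be shared, had 0.41 ± 0.29, 0.05 ± 0.29 and 0.45 ± 0.29, and the smooth muscle miR-145a-5p −0.43 ± 0.44, 0.13 ± 0.43 and −0.30 ± 0.43. The miR-29 strands, known to repress other DNA methyltransferases, were all tested. In the KO against flox HFFC 3 of 3 were negative (median −0.41), beside 128 of all 248 tested miRNAs (median −0.03). Against flox chow 3 of 3 were negative too (median −0.37), beside 130 of all 248 (median −0.05). Of the miR-29 strands 0 passed or had an unadjusted p under 0.05. With the diet 1 was positive and 2 were negative.

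The miRNAs whose pattern over the 9 libraries was most like that of miR-148a-3p were sought among the 247 other tested entries, by Pearson's r of log2 CPM (1 CPM added), as a description. They were miR-486b-5p (r = 0.81), miR-17-5p (0.80), miR-182-5p (0.77), miR-338-3p (0.77) and miR-326-3p (0.76), all with no more than 58 counts in a library. Without KO HFFC replicate 2 and flox HFFC replicate 3, where miR-148a-3p was farthest from its median, r was 0.81, 0.34, 0.21, 0.83 and 0.69 in the same order. The likeness to miR-17-5p and miR-182-5p thus rested on those libraries. Erythroid miR-486b-5p had 33, 58 and 18 counts for flox chow, 1, 47 and 46 for flox HFFC, and 17, 3 and 2 for KO HFFC. Its reads may be split with its paralog miR-486a-5p, whose sequence was not compared here. miR-486a-5p had an r of −0.33 with miR-148a-3p, and the sum of both had an r of 0.62, so the likeness to miR-486b-5p is uncertain. Of the family, miR-148b-3p had an r of 0.61 with miR-148a-3p (0.89 without the same pair of libraries), miR-152-3p of 0.23 and miR-148a-5p of −0.27, and miR-122-5p one of −0.03. All points share libraries and scaling factors.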

How the data were processed

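Small RNA of liver exosomes was sequenced in 9 libraries, grouped by sample titles. The study counts 3 mice per group. Libraries were made with a NEBNext kit per the study's methods, whereas the labels describe tissue RNA and adapters with unique molecular identifiers; neither source says whether identifiers were collapsed. The study matched reads to miRBase, and Bowtie2 is named in the processing notes of the submitters. The counting rule and genome build were not found in either. The authors deposited whole-number counts per mature miRNA, and RPM values, which equal the count divided by one tag total per library. Group means deposited by the authors, a score here since they are averaged counts, were not used. 131 of 722 entries are predicted.

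Counts were tested with edgeR 4.0.16 in R 4.3.3 (TMM factors, filterByExpr with 10 counts as its minimum, and the quasi-likelihood F test with robust estimation in 1 fit of all 9 libraries). The Benjamini-Hochberg adjustment covered the 248 entries passing the filter, 30 of them predicted. All 4 members passed. The SE is the fold change divided by the root of F. The common biological coefficient of variation was 55.0%. DEGseq, named by the study, pools the libraries of a group, so Poisson sampling of pooled counts was an alternative, beside DESeq2 1.42.0 and limma-voom (limma 3.58.1), other factors and filters, fits on 6 libraries, a replicate block and leaving out each library. Two-sided exact permutation tests were run on ratios and shares (scipy 1.17.1). The fit was also run on simulated counts with planted changes larger than those of the members. That run does not show whether changes as small as theirs would be found. All pairs of same-group libraries differed by more than sampling noise (chi-square over its degrees of freedom at least 60.6). Wilson intervals and floors cover counting error only. Named miRNAs were the members, their opposite strands, the 3 most abundant of the hepatocyte and cholesterol lists and the 5 most like miR-148a-3p. miR-150-5p, the other listed immune miRNAs, miR-195a-5p, both arms of miR-802 and the paralogs miR-486a-5p, miR-199a-3p and miR-199b-3p were named after their values were seen. Same-numbered libraries of the flox groups deviated together from their group means in 3 of 3 pairs (correlation 0.113 to 0.311, with no source naming a pairing), and those with a KO library in 2 of 6 (−0.23 to 0.27). The members and lists were chosen with earlier results of these data known. 498 entries had a RefSeq mature sequence.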

Additional observations from a re-analysis of the deposited data

How the results depend on the processing

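No member passed an adjusted p of 0.05 in any comparison or alternative, except under Poisson sampling of pooled counts, which ignores the spread between mice. The number of miRNAs called over the whole table was 148, 161 and 166 there (diet, genotype, KO HFFC against flox chow), against 0 in each main test. In the genotype comparison it was 1 with all library tags as the scale, 7 without a filter, 5 with DESeq2 and 0 to 5 when a library was left out (1 without flox chow replicate 3, 5 without KO HFFC replicate 1). In KO HFFC against flox chow it was 4, 10, 6 and 0 to 5 for the same, and 2 without predicted entries. The miR-148a-3p and miR-148b-3p values of both KO comparisons kept their negative sign in every alternative. With the diet miR-148a-3p was −0.0336 with upper-quartile factors, which put the median of all tested miRNAs at −0.14, and −0.20 to 0.27 when a library was left out, and miR-148a-5p −1.06 to 0.18 (0.19 to 1.42 in the KO against flox HFFC, 0.0174 to 0.57 against flox chow). With the diet miR-152-3p was 0.0895 with all library tags, 0.0345 with limma-voom, 0.18 on pooled counts and −0.76 to 0.59 when a library was left out. In the KO against flox HFFC it was −0.30 to 0.55, and against flox chow 0.32, 0.21 and 0.36 under the same settings, 0.0614 without a filter, 0.19 with the replicate block and −0.69 to 0.78 when a library was left out. Leaving out a library moved the diet difference in the ratio of miR-152-3p to miR-148a-3p from −0.60 to 0.52, that of miR-148a-3p to miR-122-5p from −0.41 to 0.48 (KO HFFC against flox chow −0.82 to 0.0634) and that of the seed-sharing share from −0.178 to 0.330 percentage points. As a share of all tags the latter was −1.20e-05. The replicate block called 0 miRNAs in each comparison. It changed no call, also in the diet comparison, where all 3 same-numbered pairs had a correlation of deviations over 0.1. In the KO comparisons 2 of 6 pairs did, both of replicate 3 (0.27 with flox chow and 0.26 with flox HFFC). Over all groups 4 of 9 libraries correlated best with their own number. Whether the numbers pair the KO libraries with the others was not settled. The cause of these shifts was not tested. Depth limits miR-148a-5p most, at 4 to 27 counts a library.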

Other observations

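miR-152-3p was most like the lymphocyte miRNA miR-150-5p, a pair singled out after its values were seen. Pearson's r of log2 CPM over the 9 libraries was 0.95, the highest of 247, and 0.83 over the 7 libraries left without flox chow replicate 3 and KO HFFC replicate 1, where miR-152-3p was highest. miR-150-5p had 321, 457 and 764 CPM for flox chow replicates 1 to 3, 391, 442 and 452 for flox HFFC, and 637, 353 and 430 for KO HFFC. Like miR-152-3p it was highest for flox chow replicate 3 and next highest for KO HFFC replicate 1. None of the other listed immune miRNAs was highest for flox chow replicate 3. There miR-155-5p had 67.9 CPM, its lowest value, miR-142a-3p 22.6, miR-223-3p 39.6, miR-342-3p 73.5 and miR-146a-5p 12901. miR-142a-5p had 119 there, below its highest value of 131 for flox HFFC replicate 3. The part of any cell type in the likeness was not tested. Of the next in likeness, hepatocyte miR-194-5p had an r of 0.80 with miR-152-3p, and 0.28 over the same 7 libraries, and miR-195a-5p had 0.68 and −0.14. The entry between them, miR-199a-3p, is not read here, since its sequence is that of miR-199b-3p and the r of the summed pair was −0.51. The groups overlapped for miR-150-5p, whose log2 fold changes were −0.26 ± 0.44 (SE) with the diet and 0.14 ± 0.44 in the KO against flox HFFC.

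miR-152-3p and miR-148b-3p, which share a seed and lie in introns of paralogous genes, changed order between libraries, also within the flox groups. The count of miR-152-3p was 0.709, 0.702 and 4.08 times that of miR-148b-3p for flox chow replicates 1 to 3, 0.917, 1.34 and 2.51 times for flox HFFC, and 4.40, 1.98 and 4.50 times for KO HFFC. The ranges of the groups overlapped. This ratio was looked at after the values were seen and was not tested.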
